A study of Mus musculus with 10 samples.

Results

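The genes described here are a panel of 9 genes of the cerebellar Purkinje cell: Pcp2, Car8, Calb1, Ppp1r17, Rgs8, Homer3, Gng13, Slc1a6 and Itpr1. They were chosen by symbol, from earlier results of the same arrays that showed them low on 1 wild-type array, and each was read on the brightest probe set that the platform annotation gives to that gene alone. Of the 9, 8 had such a probe set, 1 each, among 19938 genes with a value, and Itpr1 was not analysed here. The values come from whole brains of adult, untreated male mice with a C57Bl/6J background, 1 array per mouse. Transgenic mice (Tg, 5 arrays) overexpressed Glo1, the methylglyoxal-clearing enzyme glyoxalase 1, from a bacterial artificial chromosome, and wild-type littermates (WT, 5 arrays) did not carry it. The labels name neither the founder line nor a promoter that would confine the transgene to some cells. Each group is called a set of biological replicates in the labels.

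Purkinje cells are the large GABAergic neurons whose axons are the output of the cerebellar cortex. Parallel fibres of granule cells excite them in part through metabotropic glutamate receptors. These receptors act through Gq, phospholipase C and inositol trisphosphate to open the calcium store channel that Itpr1 encodes. The panel sits around that pathway. Car8, an inactive member of the carbonic anhydrase family, binds the store channel, Homer3 is a scaffold that ties the glutamate receptor to it, and Calb1 (calbindin) buffers the calcium. Pcp2, Rgs8 and Gng13 act on or in heterotrimeric G proteins: Pcp2 binds inhibitory alpha subunits, Rgs8 speeds their shut-off and Gng13 is a gamma subunit. Ppp1r17 is a phosphatase inhibitor activated by cGMP-dependent kinase, and Slc1a6 is the glutamate transporter EAAT4 of Purkinje dendrites. Calb1 is also abundant in striatum and hippocampus, and Gng13 is known from olfactory, taste and retinal cells.

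One array, WT replicate 2, stood apart and touches every result. Its differences from the mean of the other 9 arrays ran from -5.02 to 5.69 log2 units over all genes. Over all probe sets, WT replicate 2 correlated with the remaining arrays at a mean r of 0.992, against 0.994 to 0.997 for the rest. Array medians lay between 7.95 and 8.05 log2 units on all 10. On WT replicate 2, all 8 panel genes and 10 of 12 granule cell genes lay below the mean of the other 9 arrays. So did 33.6% of all probe sets. The 8 genes of cerebellar interneurons had a median difference of -0.021 there. All 7 forebrain neuron genes measured were higher on it than the mean of the other 9 arrays, by 0.06 (Wfs1) to 0.38 log2 units (Drd1, a striatal dopamine receptor), as were 66.4% of all probe sets, whose median was 0.076. Glo1 read 12.08 ± 0.13 in Tg (SD, n = 5) and 10.65 ± 0.11 on the 4 other WT arrays (SD, n = 4), which fits the labels. The 9 general brain markers had a median of -0.027 on WT replicate 2 relative to the other 9 arrays, from -0.28 for Aqp4, the water channel of astrocytes, to 0.20 for Cx3cr1, a chemokine receptor of microglia. The comparison of Tg with WT is therefore given with and without that array. In whole-tissue RNA, fewer cells of a type and less RNA per cell cannot be told apart.

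Promoters of 5 of the 8 genes were matched in RefSeq's mouse annotation of build GRCm38.p6, and 3 are printed here: that of Pcp2, which of these 5 kept the least signal on WT replicate 2, and those of Homer3 and Slc1a6, which kept the most. Each line gives the 250 bases before the most upstream annotated start, 5′ to 3′. Capitals mark matches, on either strand, to AGGTCA, the half-site of ROR-type nuclear receptors such as Rora, or to CCCNNGGG, the core of EBF sites.
Pcp2 (chr8:3625548-3625797, minus strand): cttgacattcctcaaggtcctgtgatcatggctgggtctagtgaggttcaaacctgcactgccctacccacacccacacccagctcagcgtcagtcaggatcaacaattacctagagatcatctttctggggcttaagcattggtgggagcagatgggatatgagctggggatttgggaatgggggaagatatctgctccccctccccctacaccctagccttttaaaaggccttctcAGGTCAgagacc
Homer3 (chr8:70282749-70282998, plus strand): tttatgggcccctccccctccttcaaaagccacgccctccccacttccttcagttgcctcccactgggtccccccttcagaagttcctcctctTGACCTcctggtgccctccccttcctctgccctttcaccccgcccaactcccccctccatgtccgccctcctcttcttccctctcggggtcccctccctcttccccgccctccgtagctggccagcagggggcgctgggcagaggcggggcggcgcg
Slc1a6 (chr10:78780246-78780495, plus strand): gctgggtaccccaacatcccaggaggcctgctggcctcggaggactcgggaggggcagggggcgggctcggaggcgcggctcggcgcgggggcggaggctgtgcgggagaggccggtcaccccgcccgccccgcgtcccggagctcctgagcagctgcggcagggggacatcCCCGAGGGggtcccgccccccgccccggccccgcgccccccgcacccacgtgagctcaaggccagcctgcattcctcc
AGGTCA occurred once in the promoters of Pcp2 (12 bases before the start, on the gene's strand) and Homer3 (157 bases before it, on the opposite strand), and in none of the other 3, while 13.8% of 27025 promoters hold it. CCCNNGGG occurred once in Slc1a6 and as 2 overlapping matches in Gng13, against 11.6% of all promoters. Neither TAATTA, the core of LIM homeodomain sites (4.91% of all promoters), nor TATAAA (13.0%) occurred in any of the 5. Rgs8 held no match to the 4 motifs. GC content differed widely, at 52.8% for Pcp2, 68% for Homer3 and 78.8% for Slc1a6, against a median of 52% over all promoters. These matches are descriptions of letters in the window.

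The panel was low on WT replicate 2 by very different amounts, and the first question is which of its genes lost nearly all signal there and which kept most of it. The members were chosen with this pattern known, so the values are a description without a test. All 8 genes read lower on WT replicate 2 than on any of the other 9 arrays, which 14.7% of the 28944 probe sets tested also did. Their median difference from the mean of the other 9 was -0.98 log2 units, against 0.071 over all genes. The plot of values by array shows 3 ranges. Ppp1r17, Car8 and Pcp2 were at least 2-fold lower, which 0.235% of all probe sets were. Calb1 and Rgs8 were close to 2-fold lower, and Gng13, Homer3 and Slc1a6 kept about 60% of their brightness.

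**Figure D1:**
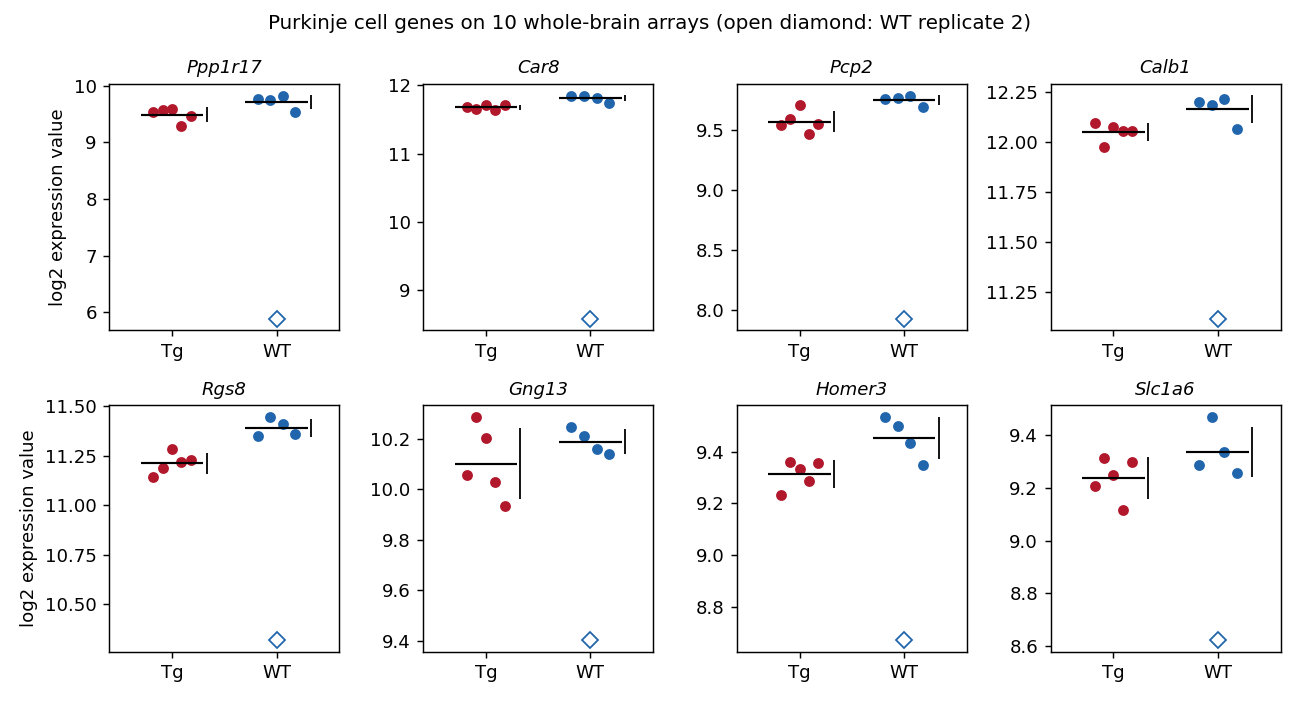
Log2 expression values of the 8 Purkinje cell genes on each array, with Tg at the left and WT at the right of each panel. Filled points are single arrays, horizontal lines are means and vertical bars 1 SD over the 5 Tg arrays or the 4 WT arrays without replicate 2, which is the open diamond. Axes do not start at 0 and differ between panels. The diamond lies below every other point in all 8 panels, at -3.70 log2 units from the mean of the other 9 for Ppp1r17 and at -0.66 for Slc1a6.

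Ppp1r17, the phosphatase inhibitor, had the deepest deficit of the panel. It read 5.89 on WT replicate 2, against 9.59 ± 0.17 on the other 9 arrays (SD, n = 9), a difference of -3.70 log2 units or 7.67% of their level. That difference, not the level on the array, ranked 3 from the lowest among 19938 genes. Car8, the partner of the store channel, read 8.59 on WT replicate 2, against 11.73 ± 0.081 on the other 9 (SD), which left 11.3%. Its difference of -3.15 ranked 5 from the lowest. Pcp2, the classical Purkinje gene that also marks retinal bipolar cells, read 7.92 on WT replicate 2, against 9.65 ± 0.12 on the other 9 (SD). Its difference of -1.73 left 30.2%.

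Calb1, Rgs8, Gng13 and Homer3 kept more. Calb1 read 11.12 on WT replicate 2, against 12.10 ± 0.081 on the other 9 (SD), a difference of -0.98 that left 50.6%. Rgs8, a regulator of G protein signalling also found in forebrain, read 10.32, against 11.29 ± 0.10 on the other 9 (SD), a difference of -0.97 that left 50.9%. Gng13, the gamma subunit, read 9.40 on WT replicate 2, against 10.14 ± 0.11 on the other 9 (SD), and kept 59.9%. Homer3, the scaffold, read 8.67, against 9.38 ± 0.097 on the other 9 (SD), and kept 61.2%.

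Slc1a6 had the smallest deficit although its transporter is best known from Purkinje cells. It read 8.62 on WT replicate 2, against 9.28 ± 0.096 on the other 9 (SD), a difference of -0.66 that left 63.3%. These percentages are of brightness, not of molecules. The part that probe background has in the brightness left on WT replicate 2 was not tested, since scanner files were not used here. A retained share therefore does not separate a gene that other brain regions express from a probe set with a high background.

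The other genes of the pathway, from a list of 16 of which 12 were measured, differed less on WT replicate 2. Their median difference from the other 9 arrays was -0.19, and 0 of the 12 were 2-fold lower, while 10 were lower by any amount, against 33.6% of all probe sets. The lowest was the calcium buffer Pvalb at -0.82, a gene that forebrain interneurons also express, and the highest was Gna11, a Gq-class alpha subunit, at 0.083. Inpp5a, a phosphatase that removes inositol trisphosphate, differed by -0.68. Plcb4, a phospholipase of the pathway, differed by -0.58, against -0.075 for Plcb3 in the same list. Atp2a3, a pump that refills the store, differed by -0.75, against -0.087 for Atp2a2. Of 13 further Purkinje genes measured, the median was -0.22. Arhgef33 stood out among them at -3.39, with 9.57% left, and Pcp4, a calmodulin-binding peptide that forebrain also holds in quantity, was at 0.011. The nuclear receptor Rora differed by -0.37 and the homeobox gene Lhx1 by -0.99, while Lhx5 of the same list differed by -0.066.

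**Figure D2:**
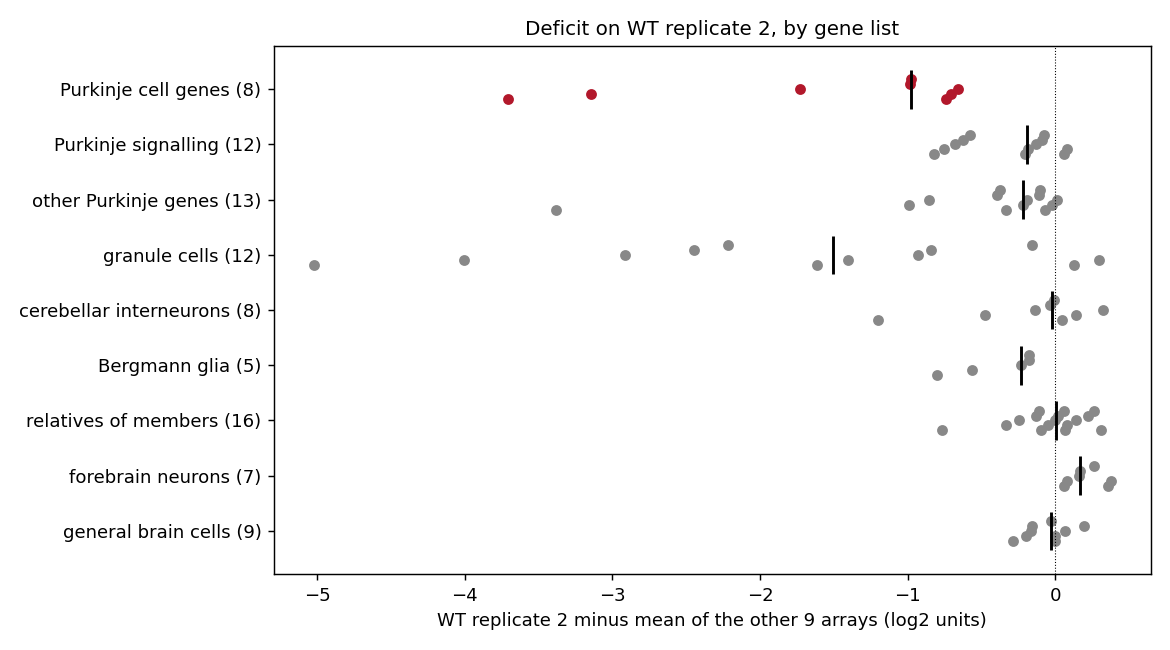
Value on WT replicate 2 minus the mean of the other 9 arrays, in log2 units, for each measured gene of 9 lists (number of genes in parentheses). Points are genes, offset vertically for legibility, the black bars are list medians and the dotted line marks no difference. The Purkinje cell genes lie between -3.70 and -0.66, granule cell genes reach -5.02, and all 7 forebrain genes lie to the right of 0, as do 66.4% of all probe sets.

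Granule cells, the most numerous cerebellar neurons, gave the list most like the panel. Their 12 genes had a median of -1.51 on WT replicate 2, with 7 at least 2-fold lower, from Gabra6, a GABA-A receptor subunit, at -5.02 to Slc17a7, a vesicular glutamate transporter used throughout cortex, at 0.30. The 5 Bergmann glia genes had a median of -0.23 and the 8 genes of cerebellar interneurons one of -0.021. In that last list the transcription factor Tfap2b was at -1.20 and Ptf1a at 0.32. Fabp7, a glial fatty acid binding protein, was the lowest Bergmann glia gene at -0.80 and Septin4 the highest at -0.18.

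Relatives of the panel genes gave a comparison within families. The median difference on WT replicate 2 was -0.98 for the panel and 0.0075 over 16 relatives. Calb1 was at -0.98, against -0.77 for Calb2 (calretinin), the lowest of the relatives, which granule cells of cerebellum and olfactory bulb express. Homer3 was at -0.71, against -0.11 and -0.13 for Homer1 and Homer2. Car8 was at -3.15, against -0.34 and 0.31 for its inactive carbonic anhydrase relatives Car10 and Car11. Slc1a6 was at -0.66, against -0.0020 and 0.058 for the glutamate transporters Slc1a1 and Slc1a2. Rgs8 was at -0.97, against 0.14 for Rgs4 and -0.24 for Rgs7. Gng13 was at -0.74, against 0.017 to 0.26 for Gng2, Gng3 and Gng7.

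The 5 genes with the profile closest to that of Pcp2 were found over the 10 arrays, each gene taken relative to its mean on the 9 arrays other than WT replicate 2. Likeness was the root mean square distance in log2 units, and WT replicate 2 is the array that weighs most in it. They were Zic1 (0.072), a granule cell transcription factor, Cep76 (0.095), a centrosomal protein, Il16 (0.10), which has a neuronal form in cerebellum, Zic2 (0.12) and Dao (0.13), D-amino acid oxidase. Their differences on WT replicate 2 ran from -1.78 for Il16 to -1.40 for Zic2. No panel member was among the 5. The nearest were Rgs8 and Calb1, at 0.24 and 0.25, and ranked 24 and 25. Car8 and Ppp1r17, with deeper deficits than Pcp2, ranked 740 and 15085.

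The second question is whether Tg brains differed from WT brains in these genes once WT replicate 2 was set aside. All 8 had a lower mean in Tg than on the 4 other WT arrays, a direction that 45.8% of all probe sets shared. Tg levels ranged from 85.4% (Ppp1r17) to 94.1% (Gng13) of WT, and the median difference was -0.14 log2 units, against 0.0060 over all genes. All 8 were among the brightest 30% of probe sets, whose median difference was -0.024. No gene of the panel passed an adjusted p of 0.05 in limma over the 28944 probe sets, a threshold that 0.0311% passed as lower in Tg. At an unadjusted p under 0.05, limma gave 6 of the 8 as lower and 0 as higher, against 3.95% of all probe sets as lower. The panel was drawn up with an earlier finding of slightly lower cerebellar genes in Tg known, so the count is no independent evidence of that direction.

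Car8 values in Tg did not overlap those of the 4 WT arrays. It read 11.67, 11.65, 11.70, 11.63 and 11.71 in Tg, against 11.84, 11.84, 11.81 and 11.74 on the 4 WT arrays. The highest Tg array lay just under WT replicate 5, the lowest of the 4. The difference was -0.14 (95% interval -0.22 to -0.052), with a limma adjusted p of 0.407. The two-sided exact permutation test over 126 assignments gave p = 0.0159, the smallest that 5 against 4 arrays allow.

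Rgs8 was the other gene without overlap between the groups. It read 11.14, 11.19, 11.28, 11.22 and 11.23 in Tg, against 11.35, 11.45, 11.41 and 11.36 on the 4 WT arrays. Every Tg value lay below every WT value, which 1.24% of all probe sets showed in this direction. The difference was -0.18 (-0.27 to -0.088; limma adjusted p = 0.407, exact permutation p = 0.0159).

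Pcp2 overlapped by 1 array. It read 9.54, 9.59, 9.71, 9.47 and 9.55 in Tg, against 9.76, 9.77, 9.79 and 9.70 on the 4 WT arrays, and Tg replicate 3 lay above WT replicate 5. The difference was -0.18 (-0.29 to -0.073; limma adjusted p = 0.407, exact permutation p = 0.0317). Ppp1r17 had the largest difference and the widest spread of the genes with an interval below 0. It read 9.54, 9.58, 9.60, 9.28 and 9.46 in Tg, against 9.77, 9.75, 9.81 and 9.54 on the 4 WT arrays. WT replicate 5 lay within the Tg range, and the other 3 WT arrays lay above all Tg arrays. The difference was -0.23 (-0.39 to -0.063; limma adjusted p = 0.407, exact permutation p = 0.0476).

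The calcium buffer and the scaffold showed the same arrangement. Calb1 read 12.09, 11.97, 12.07, 12.06 and 12.06 in Tg, against 12.20, 12.18, 12.21 and 12.06 on the 4 WT arrays, a difference of -0.11 (-0.21 to -0.018; limma adjusted p = 0.412, exact permutation p = 0.0476). Homer3 read 9.23, 9.36, 9.33, 9.29 and 9.36 in Tg, against 9.53, 9.50, 9.44 and 9.35 on the 4 WT arrays, a difference of -0.14 (-0.25 to -0.035; limma adjusted p = 0.407, exact permutation p = 0.0476). In both genes 3 of 5 Tg arrays read less than WT replicate 5, itself the lowest of the 4 WT arrays.

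Gng13 and Slc1a6, with intervals that included 0, were less clearly placed. Gng13 averaged 10.10 ± 0.14 in Tg (SD, n = 5) and 10.19 ± 0.048 on the 4 WT arrays (SD, n = 4). Its highest value of all 9 was Tg replicate 2, at 10.29, and the difference was -0.087 (-0.24 to 0.062; exact permutation p = 0.286). Slc1a6 averaged 9.24 ± 0.079 in Tg (SD, n = 5) and 9.34 ± 0.095 on the 4 WT arrays (SD, n = 4), a difference of -0.10 (-0.22 to 0.023; exact permutation p = 0.143). The permutation p values are unadjusted, 1 for each of the 8 genes, and all genes were read in the same mice.

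With WT replicate 2 included, the sign of all 8 differences turned, and 47.8% of all probe sets likewise had a higher mean in Tg. The panel's median difference was then 0.083, from 0.016 for Homer3 to 0.54 for Ppp1r17, whose interval ran from -0.86 to 1.94. Car8 averaged 11.67 ± 0.034 in Tg and 11.17 ± 1.44 in WT (SD, n = 5 each), and Ppp1r17 9.49 ± 0.13 in Tg and 8.95 ± 1.72 in WT (SD, n = 5 each). No gene of the panel passed in limma at an adjusted p of 0.05 (0.0345% of all probe sets did) or at an unadjusted p under 0.05 (2.21% of all did, in either direction). The adjusted p exceeded 0.99 for each of the 8, and exact permutation p values ran from 0.865 to 1.

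**Figure D3:**
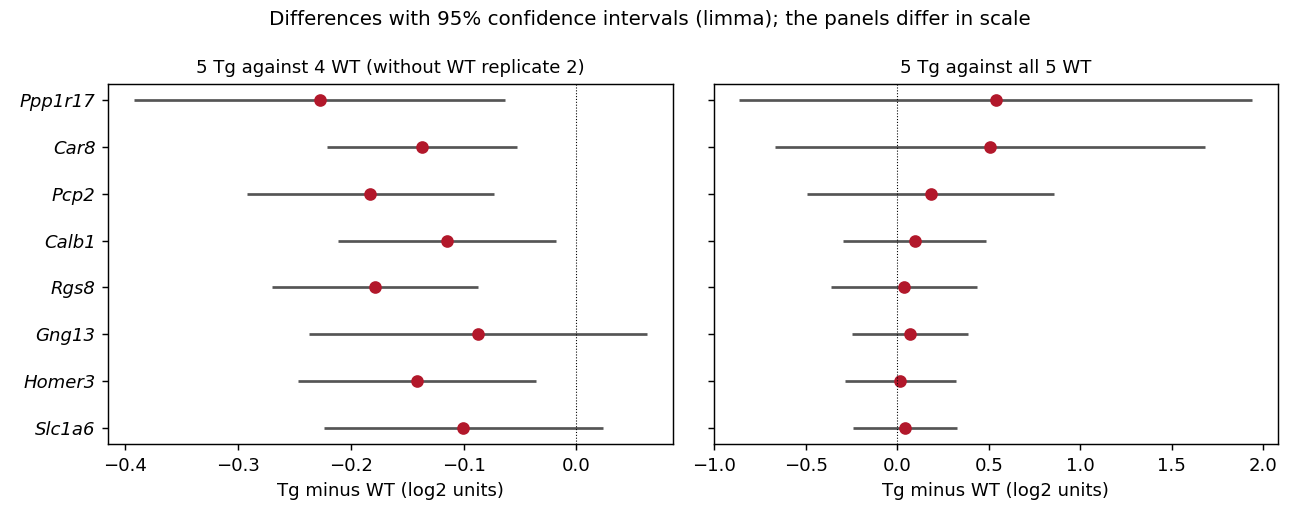
Tg minus WT difference of each Purkinje cell gene in log2 units, with 95% confidence intervals from limma, without WT replicate 2 (left) and with it (right). Points are differences of means over 5 Tg and 4 or 5 WT arrays, and the panels differ in scale. All 8 points lie left of 0 in the left panel, 6 with intervals that exclude 0, and all 8 lie right of 0 in the right panel, with every interval spanning 0.

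The lower Tg values were spread over all 5 Tg arrays and 1 WT array came close to them. Relative to each gene's mean on the 4 WT arrays, the panel's median was -0.16, -0.15, -0.098, -0.18 and -0.14 on Tg replicates 1 to 5, against 0.033, 0.034, 0.011 and -0.075 on WT replicates 1, 3, 4 and 5. WT replicate 5 was thus nearer to Tg replicate 3 than to any other WT array. Without WT replicate 5 the panel's median difference was -0.17, and without WT replicate 1 it was -0.12. The sign of none of the 8 turned when any of the 9 arrays was left out, but Gng13 was at -0.046 without Tg replicate 5 and at -0.13 without Tg replicate 2, and Slc1a6 at -0.056 without WT replicate 3.

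**Figure D4:**
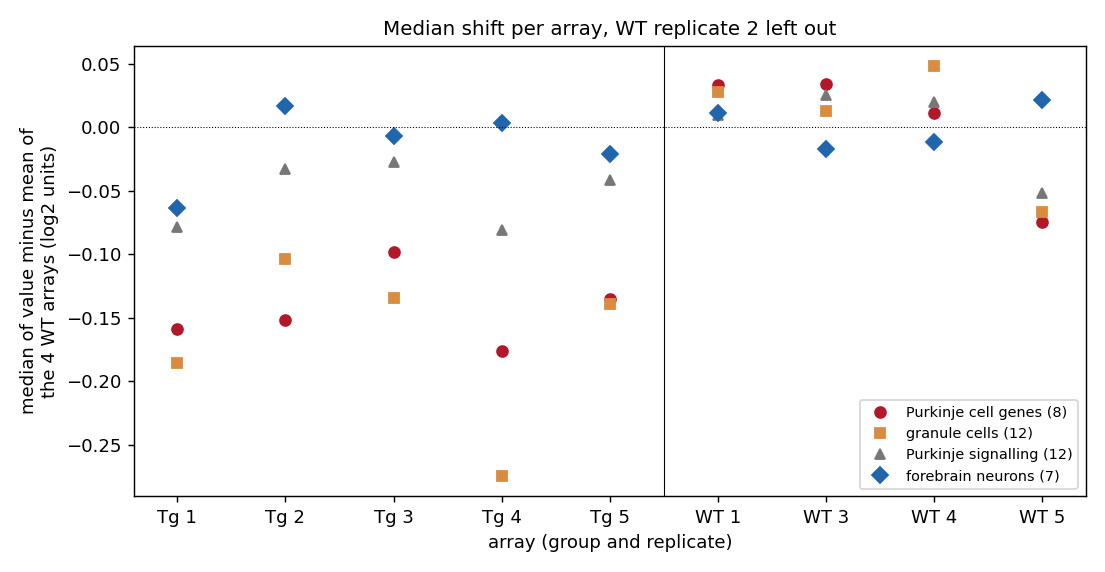
Median over each gene list of the value minus the gene's mean on the 4 WT arrays, in log2 units, for each of the 9 arrays (Tg at the left, WT at the right, WT replicate 2 left out). Each symbol is the median of 1 list on 1 array, with the number of genes in the key. Purkinje cell genes lie between -0.18 and -0.098 on the Tg arrays and between -0.075 and 0.034 on the WT arrays, and forebrain genes stay within -0.063 and 0.021.

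Granule cell genes had lower means beside the panel in this comparison. The median difference, Tg minus the 4 WT arrays, was -0.14 for the panel and -0.17 for granule cell genes. Of the 12 granule cell genes, 10 had a lower mean in Tg, against 45.8% of all probe sets. In limma 7 were lower at an unadjusted p under 0.05, against 3.95% of all probe sets, and 0 passed an adjusted p of 0.05. The list was drawn up with earlier results known, so these counts are no independent evidence. Cbln1, the synaptic organiser that granule cells secrete onto Purkinje dendrites, read 11.20 ± 0.062 in Tg (SD, n = 5) and 11.45 ± 0.064 on the 4 WT arrays (SD, n = 4), a difference of -0.25 (limma adjusted p = 0.274). Gabra6 differed by -0.29 (limma adjusted p = 0.274). The granule cell medians on single arrays ran from -0.27 to -0.10 in Tg and from -0.067 to 0.048 on the 4 WT arrays. The part of a whole-cerebellum difference between the groups in the panel's result was not tested.

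Of the 12 other genes of the pathway, 11 had a lower mean in Tg, against 45.8% of all probe sets, with a median of -0.061. In limma 0 passed an adjusted p of 0.05. At an unadjusted p under 0.05, 1 was lower, Inpp5a, against 3.95% of all probe sets. Inpp5a read 10.66 ± 0.047 in Tg (SD, n = 5) and 10.78 ± 0.027 on the 4 WT arrays (SD, n = 4). Its Tg values all lay below its WT values, as for 1.24% of all probe sets (limma adjusted p = 0.407). Among the 13 further Purkinje genes 12 had a lower mean, with a median of -0.024, and 5 had an unadjusted p under 0.05. Arhgef33 differed most, at 9.93 ± 0.050 in Tg (SD, n = 5) and 10.19 ± 0.12 on the 4 WT arrays (SD, n = 4), a difference of -0.26 (limma adjusted p = 0.407). Pcp4 differed by -0.0095.

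Lists of other cells were closer to 0 than the panel, at -0.14, and the granule cell genes, at -0.17. They were not all closer to 0 than the pathway genes, at -0.061, or the further Purkinje genes, at -0.024. The median Tg minus WT difference, without WT replicate 2, was -0.024 for forebrain neurons, -0.020 for the relatives of panel genes, -0.063 for Bergmann glia and 0.0078 for cerebellar interneurons. In the general brain list it was -0.0052. There Cldn5, a tight junction protein of brain endothelium, differed by 0.19, with all 5 Tg values above those of the 4 WT arrays (limma adjusted p = 0.407), as for 1.86% of all probe sets. Among the relatives, Car10 had the lowest p, at -0.11 (limma adjusted p = 0.460), Homer1 differed by 0.0017 and Calb2 by -0.014. None of the genes in these lists passed an adjusted p of 0.05 in limma, and 3 of them had an unadjusted p under 0.05, Cldn5, Rbfox3 and Tfap2b, against 11.0% of all probe sets in either direction.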

How the data were processed

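Expression was measured in whole-brain total RNA of 5 Tg and 5 WT mice, isolated with TRIzol, cleaned on RNeasy columns and hybridised with biotin label to 1 single-colour Affymetrix array each, per the labels. The submitters' processing notes name Affymetrix Expression Console 1.1.2 as the source of the deposited log2 expression values. How it corrected background, normalized and summarised probes is not stated in the labels. The values, 3.28 to 14.7, were used as deposited.

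Control rows (6612 of 35556) were left out, which left 28944 probe sets, of which 21789 had 1 gene. Symbols were updated through Entrez identifiers in the GRCm38.p6 annotation. Tg and WT were compared with limma 3.58.1 (lmFit and eBayes, R 4.3.3) over all 28944 probe sets with Benjamini-Hochberg adjustment, with and without WT replicate 2, and single genes with two-sided exact permutation tests (SciPy 1.17.1). The limma step was first tested on simulated data. The members and lists were chosen with earlier results of these data known. The text names all panel members and, of each other list, the gene of lowest p and those with the lowest and highest difference on WT replicate 2, besides the 5 genes nearest to Pcp2. Glo1, Plcb3, Plcb4, Atp2a2, Atp2a3, Rora, Lhx1, Lhx5, Rbfox3 and the further relatives were named beyond that rule. Glo1 was named by plan and the others after their values were seen. Alternatives covered normalization, filters on dim probe sets, the variance model, weighting of arrays, a block on the replicate number, averaged probe sets and single arrays left out. The number of arrays limits the precision.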

Additional observations from a re-analysis of the deposited data

Results flagged for a closer look

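For each of the 8 panel genes, WT replicate 2 was far below the other 4 WT arrays, by a gap of more than 0.71 of the group's range (Dixon's criterion for 5 samples). The values were 7.92 for Pcp2 (next lowest WT array 9.70), 8.59 for Car8 (11.74), 11.12 for Calb1 (12.06), 5.89 for Ppp1r17 (9.54), 10.32 for Rgs8 (11.35), 8.67 for Homer3 (9.35), 9.40 for Gng13 (10.14) and 8.62 for Slc1a6 (9.26). The gap made up 0.748 of the range for Slc1a6 and 0.968 for Car8. No gene was flagged within the 5 Tg arrays or within the 4 other WT arrays. Of 24 groups of values examined 8 were flagged, and chance flags about 1 in 20. The 8 flags rest on 1 array and were known when the genes were chosen.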

How the results depend on the processing

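Without WT replicate 2, all 8 differences stayed negative and 0 genes passed an adjusted p of 0.05 under all 18 alternatives (adjusted p from 0.244 to 0.875), with 5 to 7 genes lower at an unadjusted p under 0.05 and a median of -0.17 to -0.11. Gng13 was at -0.057 after quantile normalization. It was at -0.13 with the replicate block, the same estimate as without Tg replicate 2. Calls over all probe sets numbered 11, with 6 among the upper 30% of probe sets, where fewer were tested, and 10 to 12 under the other alternatives. With all 5 WT arrays the results turned on WT replicate 2. Array weights made all 8 genes lower in Tg, against 0 in the unweighted fit, at -0.12 for Pcp2, -0.027 for Car8, -0.075 for Calb1, -0.099 for Ppp1r17, -0.14 for Rgs8, -0.13 for Homer3, -0.072 for Gng13 and -0.084 for Slc1a6, with a median of -0.091. With single arrays left out, 0 to 8 genes had a lower mean in Tg and 0 to 6 an unadjusted p under 0.05, the high ends without WT replicate 2. The differences then ranged from -0.18 to 0.28 for Pcp2, -0.14 to 0.68 for Car8, -0.11 to 0.16 for Calb1, -0.23 to 0.75 for Ppp1r17, -0.18 to 0.10 for Rgs8, -0.14 to 0.075 for Homer3, -0.087 to 0.12 for Gng13 and -0.10 to 0.11 for Slc1a6, and the median from -0.14 to 0.14. The median deficit on WT replicate 2 lay between -1.06 and -0.94 under 5 alternatives. Replicate numbers gave no uniform pairing: correlations of same-numbered deviations ran from -0.47 to 0.45, and 2 of 5 Tg arrays correlated best with their own number. WT replicate 2 enters the WT mean behind these deviations, so they cannot settle whether the numbers pair the arrays. With the replicate number as a block, the panel's median was -0.14 without WT replicate 2 and 0.083 with it, 0 genes passed, and calls over all probe sets were 10 and 11. These medians are no separate check. Without WT replicate 2 the block leaves Tg replicate 2 unpaired and so drops it, and with all 5 WT arrays it returns the unblocked differences.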
